A study of Rattus norvegicus with 12 samples.

Results

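The comparison was between cultured rat cortical neurons in which Stau2 was knocked down (shStau2) and neurons with a non-targeting control hairpin (shNTC). Libraries were chosen by their titles, which gave 4 shStau2 and 4 shNTC libraries, 8 of the 12 in the series, and they were paired by the replicate number in the title. All neurons came from Sprague Dawley rat cortices of embryonic day 17, and each group had been transduced with a lentivirus that expressed its short hairpin RNA. The virus was added at 10 days in vitro (DIV) and the cells were lysed at 14 DIV. The remaining 4 libraries, from neurons with a hairpin against Pum2 (shPum2), served the study as a second control for what any hairpin changes, and here they entered the model fit and are given beside the results. The series calls the 4 libraries of a group biological replicates, and it gives no promoter of the hairpins, no share of transduced cells and no preparation behind a replicate number. The mRNA of Stau2 is not part of small RNA tables, so the depth of the knockdown was not analysed here.

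MicroRNAs (miRNAs) are short RNAs cut from hairpin precursors by the nucleases Drosha and Dicer. One arm of the hairpin is usually kept by an Argonaute protein as the guide, and the other, the passenger, is mostly degraded. The bases near the 5′ end, the seed, choose the mRNAs that the Argonaute complex represses. Staufen2 binds double-stranded RNA and is known for carrying mRNAs into the dendrites of neurons, and the title of the series places it in the assembly of neuronal Argonaute complexes. Which miRNAs differ in level when Staufen2 is depleted is the question of the comparison.

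The tables named 685 miRNAs, of which 628 passed a filter on low counts and were tested. Sequences from RefSeq (assembly GRCr8) matched 619 of the 685 names. Those that the results turn on are shown with the seed, bases 2 to 8, in capitals, and each is written 5′ to 3′. The first set holds the 3 guide strands of the miR-29 family, which share a seed, followed by 3 names that RefSeq places on the opposite strand of the same loci.
miR-29a-3p: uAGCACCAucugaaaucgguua
miR-29b-3p: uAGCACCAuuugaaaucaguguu
miR-29c-3p: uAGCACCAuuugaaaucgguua
miR-3556a: cGAUUUCAgauggugcua
miR-3587: aACACUGAuuucaaauggugc
miR-3556b: aCCGAUUUcaaauggugcua

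The second set holds the other seed shared by called miRNAs, that of miR-125, with the opposite-strand name of miR-125b-5p.
miR-125a-5p: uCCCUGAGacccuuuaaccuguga
miR-125b-5p: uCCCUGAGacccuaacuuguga
miR-351-5p: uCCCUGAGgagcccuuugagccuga
miR-3588: uCACAAGUuagggucucaggga

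The third set holds other miRNAs that were lower in shStau2 and are described one by one. Each had a seed of its own among the called miRNAs.
miR-29a-5p: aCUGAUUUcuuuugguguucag
miR-21-5p: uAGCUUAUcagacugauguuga
miR-23a-3p: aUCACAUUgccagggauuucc
miR-27a-3p: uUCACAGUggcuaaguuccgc
miR-27a-5p: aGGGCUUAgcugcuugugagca
miR-155-5p: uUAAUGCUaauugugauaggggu
miR-495: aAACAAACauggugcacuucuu
miR-543-3p: aAACAUUCgcggugcacuucu
miR-380-3p: uAUGUAGUaugguccacaucu
miR-758-3p: uUUGUGACcugguccacuaacc

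The fourth set holds the imprinted Gnas-locus miRNAs, which were higher in shStau2.
miR-296-5p: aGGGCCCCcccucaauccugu
miR-296-3p: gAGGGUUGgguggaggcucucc
miR-298-5p: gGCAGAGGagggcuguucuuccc

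Of the 628 miRNAs tested, 39 (6.21%) differed between shStau2 and shNTC at an adjusted p of 0.05, with 15 higher (2.39%) and 24 lower (3.82%) in shStau2. The 5 largest falls were those of miR-29a-5p, miR-27a-5p, miR-21-3p, miR-29b-3p and miR-21-5p, and the rises included the very abundant miR-125b-5p. Levels are CPM, the usual scaling of counts to library size, adjusted with edgeR's TMM factors, so they are shares of a library and not amounts per cell. Fewer cells of a type and less RNA per cell cannot be told apart in them. The 24 that fell had log2 fold changes, here called log2 changes, between -1.32 and -0.20 (median -0.53), and 4 of them fell by more than 1 on the log2 scale. The 15 that rose had log2 changes between 0.24 and 0.75 (median 0.36). Summed, the lower miRNAs went from 37770 to 28527 CPM and the higher ones from 151663 to 181221 CPM.

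The replicate number was a term of the model (a block), and the count of calls rested on it. Without the block 2 miRNAs passed (0.318%), miR-29a-5p and miR-29b-3p, both lower. The other 37 had an adjusted p between 0.0772 and 0.609 without it. With the block 141 miRNAs (22.5%) had an unadjusted p under 0.05, and without it 71 (11.3%). Each of the 39 moved in the same direction in all 4 pairs of libraries with the same number. That pattern was not rare among all miRNAs tested, since 91 (14.5%) were lower and 101 (16.1%) higher in all 4 pairs. The libraries of the groups did not overlap for 60 of the 628 miRNAs (9.55%), 33 lower (5.25%) and 27 higher (4.3%) in shStau2. Of the 39 called, 26 were among these, 17 lower and 9 higher. Leaving out replicate number 4 in all groups left 5 calls, all of them among the 39, and leaving out single libraries left between 12 and 42.

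**Figure D1:**
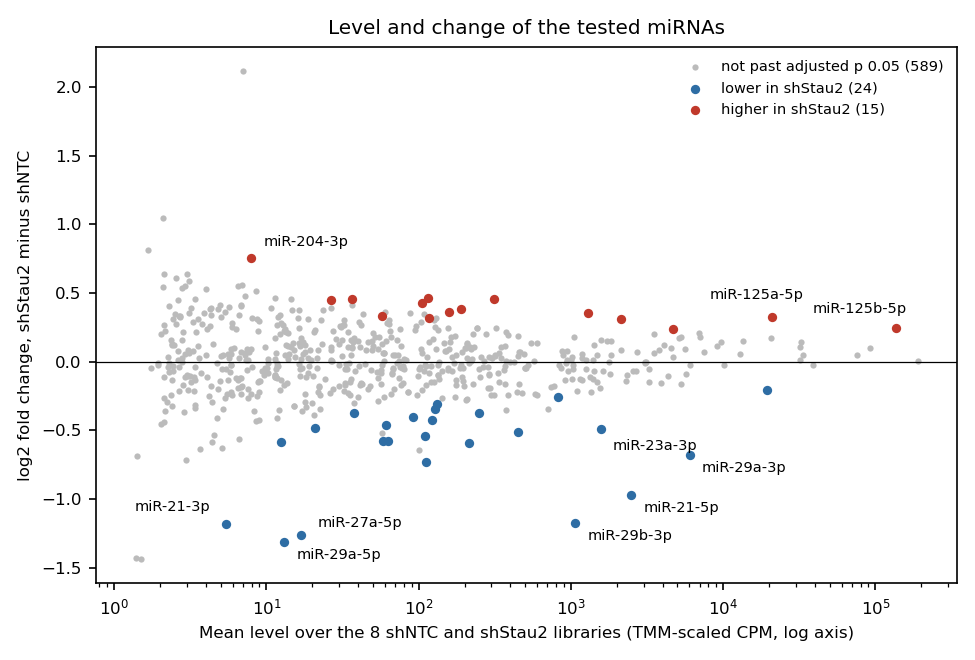
Log2 change of shStau2 minus shNTC (vertical axis) against the mean TMM-scaled CPM over the 8 libraries (horizontal, log axis) for the 628 miRNAs tested; blue points were lower and red points higher at an adjusted p of 0.05, grey points did not pass. The 4 called miRNAs that fell by more than 1 include miR-29b-3p at over 1000 CPM, while the 15 red points all lie between 0.24 and 0.75.

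Of the 6 strands of the miR-29 family tested, 4 fell in shStau2 and 2, both of miR-29c, did not pass. The family has a single seed on its guide strands, rises as neurons mature and is known to repress mRNAs of apoptosis and of the extracellular matrix. The guide strand miR-29b-3p stood at 1492, 1663, 1320 and 1444 CPM in shNTC replicates 1 to 4 and at 789, 708, 648 and 503 CPM in shStau2. The lowest control was well above the highest knockdown library, and the log2 change was -1.18 (SE 0.20, adjusted p = 0.0123 in edgeR). Without shNTC replicate 2 or without shNTC replicate 4 it no longer passed, with an adjusted p of up to 0.0865. The guide strand miR-29a-3p, the most abundant of the family, stood at 8411, 8740, 6528 and 5878 CPM in shNTC and at 5131, 5136, 4857 and 3388 CPM in shStau2. Its groups did not overlap either, and its log2 change was -0.68 (SE 0.11, adjusted p = 0.00374). The third guide, miR-29c-3p, stood at 1092, 1277, 1221 and 1099.6 CPM in shNTC and at 1046, 1010.2, 1168 and 859.9 CPM in shStau2. These groups overlapped, and its log2 change of -0.21 (SE 0.11, adjusted p = 0.25) did not pass.

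The passenger strands of miR-29a and miR-29b fell too. The strand miR-29a-5p stood at 18.3, 21.9, 17.2 and 16.8 CPM in shNTC and at 9.3, 5.33, 7.77 and 7.44 CPM in shStau2. It had the largest fall of all called miRNAs, a log2 change of -1.32 (SE 0.18, adjusted p = 0.000178). It passed without each single library and without each replicate number. The strand miR-29b-5p was lower by a log2 change of -0.37 (SE 0.10, adjusted p = 0.0337), going from between 39.4 and 46.9 CPM in shNTC to between 28.5 and 37.3 CPM in shStau2. It passed in 2 of the 8 fits that left out a library. Of miR-29c-5p the log2 change was -0.17 (SE 0.10, adjusted p = 0.324).

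Read by locus, the strands of the family divided as follows. RefSeq places miR-29a-3p at chr4:60617968-60617989 on the minus strand of GRCr8, in Mir29a. It places miR-29b-3p at chr4:60618342-60618364 on the same strand, in Mir29b1, and at chr13:109098882-109098904 on the plus strand, in Mir29b2, which lies next to Mir29c. All 3 tested names of the Mir29a and Mir29b1 hairpins fell, and 2 of the 4 of the Mir29b2 and Mir29c hairpins, those of miR-29b. The guides are close in sequence: miR-29a-3p and miR-29c-3p share 21 of 22 positions, miR-29b-3p and miR-29c-3p 19 of 22, and miR-29a-3p and miR-29b-3p 18 of 22. Reads of such near-identical strands may have been exchanged in the authors' assignment, so the separate values are uncertain to that extent. Summed over the seed AGCACCA, the family fell from 10320 ± 1587 to 6522 ± 1132 CPM (SD, n = 4), a log2 change of -0.67 (SE 0.14, adjusted p = 0.0298 in edgeR over 486 seed families). That sum did not pass without the block (adjusted p = 0.162).

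**Figure D2:**
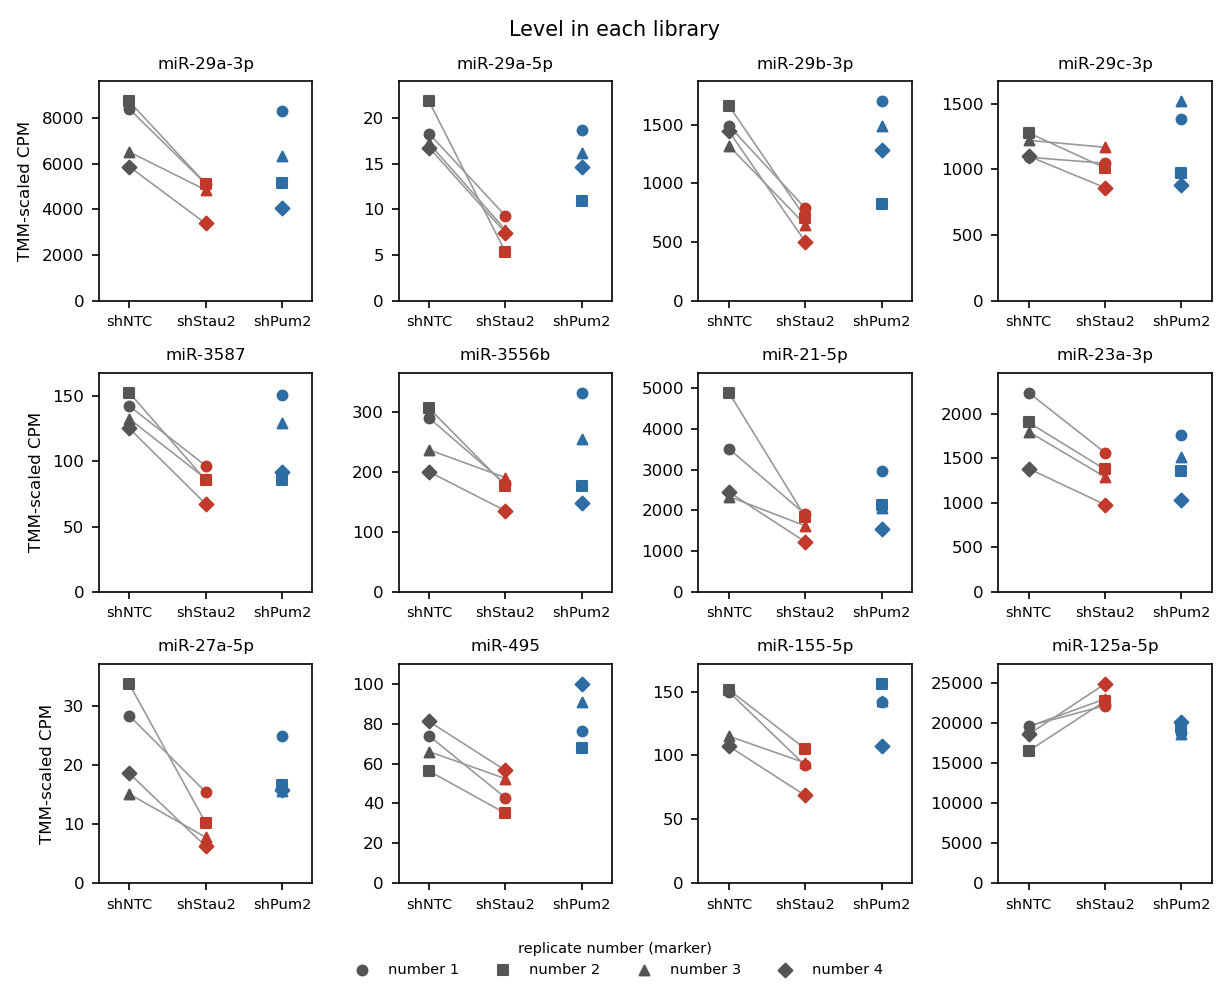
TMM-scaled CPM (vertical axes, from 0) of 12 miRNAs in each of the 12 libraries; each point is a library, markers give the replicate number, and grey lines join shNTC and shStau2 libraries with the same number. For miR-29b-3p the 4 shStau2 points lie between 503 and 789 CPM, below all shNTC points, whereas the groups overlap for miR-29c-3p, miR-23a-3p, miR-27a-5p and miR-495, although every grey line of these falls.

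Some called names lie on the opposite strand of a better known miRNA. Among the tested names, 35 pairs overlapped on opposite strands over at least 15 bases, and all 35 were complementary over the whole overlap. The name miR-3587 has all of its 21 bases complementary to miR-29b-3p, and RefSeq places it at chr4:60618342-60618362 on the plus strand. It stood at 142, 153, 133 and 125 CPM in shNTC and at 96.6, 85.6, 86.7 and 67.4 CPM in shStau2. The groups did not overlap, and it fell with a log2 change of -0.73 (SE 0.12, adjusted p = 0.00119). The name miR-3556b has all of its 20 bases complementary to miR-29c-3p, and a run of 17 of them also to miR-29b-3p. It fell with a log2 change of -0.59 (SE 0.14, adjusted p = 0.0239), from 258 ± 48.7 to 171 ± 24.4 CPM with no overlap, although miR-29c-3p itself did not pass. The call of miR-3556b held in 3 of the 8 fits that left out a library. The name miR-3556a, opposite to miR-29a-3p, was at 6.22 ± 1.49 CPM in shNTC and 3.99 ± 0.655 CPM in shStau2 and did not pass (log2 change -0.63, SE 0.23, adjusted p = 0.126).

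The sources used here do not say whether the authors counted by strand, so reads of a miRNA and of its opposite-strand name cannot be told apart. Of the 39 called names, 7 belong to such pairs. Among the 628 tested names there were 35 pairs, each made of a name and its opposite-strand name. A count of names and a count of pairs are unlike measures, so the count of 7 is not read as a trait of the called names. In the 20 pairs with at least 10 CPM for each name, the rarer name stood at 0.184% to 80.5% of the commoner one in shNTC (median 4.95%). In shNTC miR-3587 stood at 9.33% of miR-29b-3p and miR-3556b at 22% of miR-29c-3p, and in shStau2 at 12.7% and 16.7%. With the counts of each pair summed, 34 of 593 names passed, 13 higher and 21 lower, and all 34 carry a name that was also called before summing. The miR-29b sum kept a log2 change of -1.13 (SE 0.19, adjusted p = 0.0108), and the miR-29c sum did not pass (log2 change -0.28, adjusted p = 0.153).

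**Figure D3:**
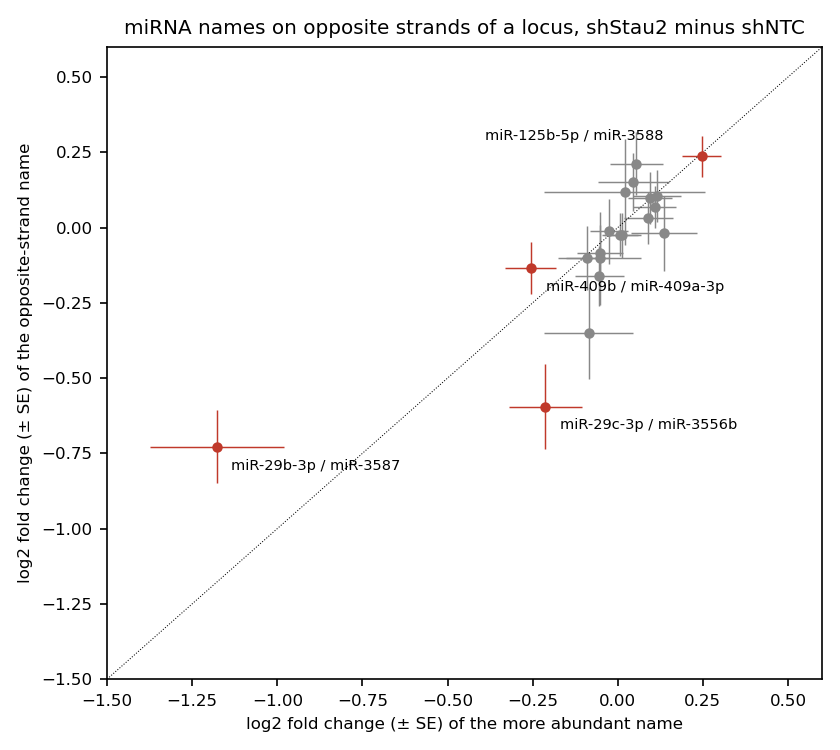
Log2 change, shStau2 minus shNTC, of the commoner name (horizontal) and of the rarer name (vertical) in the 20 opposite-strand pairs with at least 10 CPM each; bars are standard errors, the dotted line marks equal change, and red marks pairs with a called name. The miR-29b-3p and miR-3587 pair lies lowest on the horizontal axis at -1.18, and miR-3556b at -0.59 lies below its partner miR-29c-3p at -0.21.

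The miR-125 guides, mammalian relatives of the worm timing regulator lin-4 with known roles in neural differentiation and at synapses, were higher in shStau2. The guide miR-125a-5p stood at 19649, 16537, 19574 and 18614 CPM in shNTC and at 22204, 22776, 23037 and 24928 CPM in shStau2. All 4 knockdown libraries were above all controls, with a log2 change of 0.32 (SE 0.06, adjusted p = 0.0038). It remained called without each single library, but not without the block (adjusted p = 0.0772). The guide miR-125b-5p stood at 128165, 110736, 136482 and 123671 CPM in shNTC and at 145042, 138580, 156222 and 151377 CPM in shStau2. These groups did not overlap either, and it rose by 0.25 on the log2 scale (SE 0.06, adjusted p = 0.0147). It no longer passed without shStau2 replicate 1, 2 or 4 (adjusted p up to 0.126). Its opposite-strand name miR-3588 rose by a like amount (log2 change 0.24, SE 0.07, adjusted p = 0.0491) and stood at 3.44% of miR-125b-5p in shNTC and 3.42% in shStau2. That call was lost whichever single library was left out. The third member of the seed, miR-351-5p, was at 206 ± 38.7 and 186 ± 18.4 CPM and did not pass (adjusted p = 0.398). The summed seed CCCUGAG went from 147508 ± 11587 to 176696 ± 7394 CPM, a log2 change of 0.26 (SE 0.05, adjusted p = 0.0029). Of the 11 miR-125, miR-99 and miR-100 strands tested, these 2 guides rose and the other 9 did not pass (median of all 11, 0.04).

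Both strands of miR-21, found in astrocytes and in proliferating cells, were lower in shStau2. The guide miR-21-5p stood at 3514, 4891, 2340.1 and 2448 CPM in shNTC and at 1904, 1840, 1621 and 1228 CPM in shStau2. The control libraries with numbers 1 and 2 were far above those with numbers 3 and 4, and even so no knockdown library reached the lowest control. Its log2 change was -0.97 (SE 0.15, adjusted p = 0.00441), and it no longer passed without shNTC replicate 4 (adjusted p = 0.0643). The passenger miR-21-3p fell from 7.57 ± 1.76 to 3.3 ± 1.44 CPM, a log2 change of -1.18 (SE 0.25, adjusted p = 0.00994). It no longer passed without shNTC replicate 2 or without shStau2 replicate 1 (adjusted p up to 0.0737).

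Of the miR-23a, miR-27a and miR-24 hairpins, which come from a common primary transcript, 3 strands fell and 1 rose. The guide miR-23a-3p stood at 2237, 1901, 1798 and 1383 CPM in shNTC and at 1562, 1375, 1289 and 979 CPM in shStau2. The groups overlapped, yet the differences within the 4 numbers were nearly equal, from -0.52 to -0.47 on the log2 scale. The fitted log2 change was -0.49 (SE 0.07, adjusted p = 0.000178), and the adjusted p was 0.294 without the block. The passenger miR-23a-5p stood at 93.4, 123, 66.4 and 73.3 CPM in shNTC and at 125, 178, 76.2 and 109 CPM in shStau2. It rose in each number, by a log2 change of 0.43 (SE 0.10, adjusted p = 0.0186), opposite to its guide, and the call held in 2 of the 8 fits without a library. The other hairpin behaved differently. The guide miR-27a-3p lay between 521 and 533 CPM in shNTC and between 303 and 428 CPM in shStau2 (log2 change -0.51, SE 0.11, adjusted p = 0.0146). Its call held in 3 of the 8 fits without a library. The passenger miR-27a-5p stood at 28.4, 33.8, 15.1 and 18.6 CPM in shNTC and at 15.4, 10.2, 7.77 and 6.24 CPM in shStau2. It fell more than its guide, by 1.27 on the log2 scale (SE 0.17, adjusted p = 0.000178). The third guide, miR-24-3p, did not pass (log2 change -0.14, SE 0.06, adjusted p = 0.195). Nor did the guides of the paralogous cluster, miR-23b-3p (log2 change 0.08, adjusted p = 0.621) and miR-27b-3p (-0.07, adjusted p = 0.646), which share 20 of 21 positions with miR-23a-3p and miR-27a-3p.

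The ratio of the arms of a hairpin does not depend on the scaling between libraries. Tested were 127 hairpins with a mean of at least 10 CPM for each arm over all 12 libraries. Of these, 5 (3.94%) shifted their ratio of 5p to 3p level in shStau2 (limma, adjusted over the 127). The filter did not require that level in each group. In shStau2 the means of miR-29a-5p and miR-27a-5p were below it, at 7.46 and 9.91 CPM. The ratio of miR-23a stood at -4.58, -3.94, -4.75 and -4.23 on the log2 scale in shNTC and at -3.64, -2.95, -4.07 and -3.16 in shStau2. It moved towards the 5p arm by 0.92 (SE 0.13, adjusted p = 0.0022), and towards it in all 4 numbers. The ratio of miR-543 moved the same way by 0.59 (SE 0.11, adjusted p = 0.0107), and it was the single shift that also passed without the block (adjusted p = 0.0184). Away from the 5p arm moved the ratios of miR-27a by 0.74, of miR-29a by 0.61 and of miR-412 by 0.42, written as log2 shifts of -0.74 (SE 0.13, adjusted p = 0.0084), -0.61 (SE 0.14, adjusted p = 0.0346) and -0.42 (SE 0.10, adjusted p = 0.0315). Neither arm of miR-412 passed by itself. Without replicate number 4 in all groups 1 of the 5 remained, and without number 2 there were 2. In shPum2 the shifts against the same shNTC libraries were 0.39 for miR-23a, 0.19 for miR-543, -0.20 for miR-27a, 0.03 for miR-29a and -0.06 for miR-412.

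**Figure D4:**
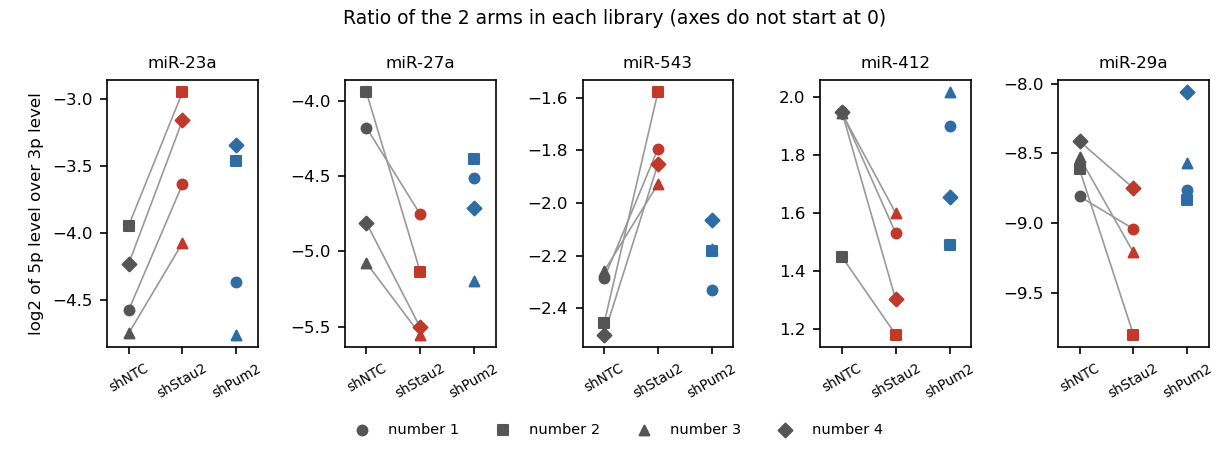
Log2 ratio of 5p to 3p level (vertical axes, which do not start at 0) for the 5 hairpins whose ratio shifted, in each of the 12 libraries; markers give the replicate number and lines join shNTC and shStau2 libraries of the same number. All 4 lines rise for miR-23a and miR-543 and all 4 fall for miR-27a, miR-412 and miR-29a.

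Among the 83 tested strands of the imprinted Dlk1-Dio3 cluster, a large set of miRNAs expressed in brain from the maternal chromosome, 5 fell and 0 rose (median of the 83, -0.08, against 0.00 over all tested). Calls were thus about as frequent there as over all 628 miRNAs, of which 6.21% were called and 3.82% fell. The strand miR-495, known for targeting mRNAs of neuronal growth, stood at 73.9, 56.3, 66.1 and 81.2 CPM in shNTC and at 42.9, 35, 52.4 and 56.6 CPM in shStau2. The groups overlapped, since number 4 was high and number 2 low in both, and the log2 change was -0.58 (SE 0.10, adjusted p = 0.00119). It remained called without each library and each number. In shPum2 it stood at 76.3, 67.9, 90.8 and 100.1 CPM, higher than the shNTC library of the same number in all 4. The strand miR-543-3p lay between 122 and 171 CPM in shNTC and between 98.6 and 109 CPM in shStau2, with a log2 change of -0.42 (SE 0.10, adjusted p = 0.0144). Its passenger miR-543-5p did not pass (0.16, adjusted p = 0.458). The other 3 that fell were miR-380-3p (log2 change -0.41, adjusted p = 0.015), miR-758-3p (-0.48, adjusted p = 0.041) and miR-409b (-0.25, adjusted p = 0.0491). The last lies opposite to miR-409a-3p, which did not pass (-0.13, adjusted p = 0.387), and the sum of that pair did not pass either (adjusted p = 0.0704). Of the 8 fits that left out a library, the calls of miR-543-3p and miR-380-3p held in 4 each. That of miR-758-3p held in 2 and that of miR-409b in 0. Known dendritic or activity-linked miRNAs such as miR-134 and miR-132 were in a list of 11 strands of which 0 passed in edgeR, 3 had an unadjusted p under 0.05 and 1 passed in DESeq2.

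Further miRNAs that fell belong to no common locus. The immune-cell miRNA miR-155-5p stood at 149.8, 151, 115 and 107 CPM in shNTC and at 92.1, 105, 94.1 and 68.6 CPM in shStau2. The lowest control lay just above the highest knockdown library, and the log2 change was -0.54 (SE 0.09, adjusted p = 0.00119), called without each library and each number. The endothelial miR-126a-5p fell from 70.2 ± 5.71 to 51 ± 6.35 CPM (log2 change -0.46, adjusted p = 0.0103). Both arms of miR-455, a miRNA known from cartilage, fell by a like amount, miR-455-5p with a log2 change of -0.58 (adjusted p = 0.0147) and miR-455-3p with -0.59 (adjusted p = 0.047). The remaining falls were small: miR-152-3p (-0.37), miR-3068-5p (-0.35), miR-17-5p (-0.31) and let-7i-5p (-0.20). Of these let-7i-5p was the most abundant, at 20666 ± 1560 CPM in shNTC and 17967 ± 1479 CPM in shStau2 (adjusted p = 0.047), and the other 18 let-7 and miR-98 strands tested did not pass. Of the 8 fits without a library, the calls of let-7i-5p and miR-17-5p held in 1 each. Those of miR-152-3p, miR-3068-5p and miR-455-3p held in 2 each, that of miR-455-5p in 3 and that of miR-126a-5p in 5. Among 22 strands from the miR-17 cluster or its paralogs, miR-17-5p alone passed, and its sum with miR-20a-5p, miR-20b-5p, miR-93-5p and miR-106b-5p, which share its seed, had an adjusted p of 0.774.

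Rises beyond miR-125 included the imprinted Gnas locus, where 3 of the 4 tested strands of miR-296 and miR-298 were higher, against 2.39% of all miRNAs tested. The strand miR-296-3p stood at 283, 238, 266 and 265 CPM in shNTC and at 333, 359.5, 341 and 428 CPM in shStau2 (log2 change 0.46, SE 0.11, adjusted p = 0.0157). Its partner miR-296-5p rose from 139 ± 5.82 to 179 ± 10.3 CPM (0.36, adjusted p = 0.033), and miR-298-5p from 1137 ± 120 to 1462 ± 172 CPM (0.35, adjusted p = 0.0379). In none of the 3 did the groups overlap, but each call held in just 2 of the 8 fits that left out a library. The remaining strand miR-298-3p did not pass (0.14, adjusted p = 0.387). In shPum2 the log2 changes against shNTC were 0.15 for miR-296-3p, 0.10 for miR-296-5p and 0.23 for miR-298-5p. Set directly against shPum2, none of these passed in shStau2 (edgeR). The log2 changes were 0.30 for miR-296-3p (adjusted p = 0.128), 0.26 for miR-296-5p (adjusted p = 0.128) and 0.12 for miR-298-5p (adjusted p = 0.491).

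Of the 9 tested strands from introns of the X-linked gene Clcn5, 2 rose, miR-532-3p (log2 change 0.46, adjusted p = 0.044) and miR-501-5p (0.45, adjusted p = 0.0481). Over all 628 miRNAs tested, 2.39% were higher. Rarer arms whose partner did not pass were also among the rises. Thus miR-185-3p rose by 0.46 on the log2 scale (SE 0.10, adjusted p = 0.0144) while miR-185-5p was at 0.08, and miR-204-3p rose by 0.75 (SE 0.19, adjusted p = 0.0255) while miR-204-5p was at 0.16. The strand miR-204-3p was rare, at 5.87 ± 1.33 and 10 ± 4.17 CPM, and shStau2 replicate 2 held the most, 16 CPM. The rodent strand miR-672-3p rose from 164 ± 21 to 213 ± 11.3 CPM (0.38, SE 0.10, adjusted p = 0.0239) without overlap. The other rises were miR-3099 (0.31, adjusted p = 0.0492), miR-674-3p (0.32, adjusted p = 0.0491) and miR-344b-1-3p (0.33, adjusted p = 0.044), all close to the threshold. Of the 8 fits that left out a library, the calls of miR-672-3p, miR-185-3p and miR-204-3p held in 3 each. Those of miR-532-3p, miR-3099 and miR-674-3p held in 2 each, that of miR-501-5p in 1 and that of miR-344b-1-3p in 0.

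**Figure D5:**
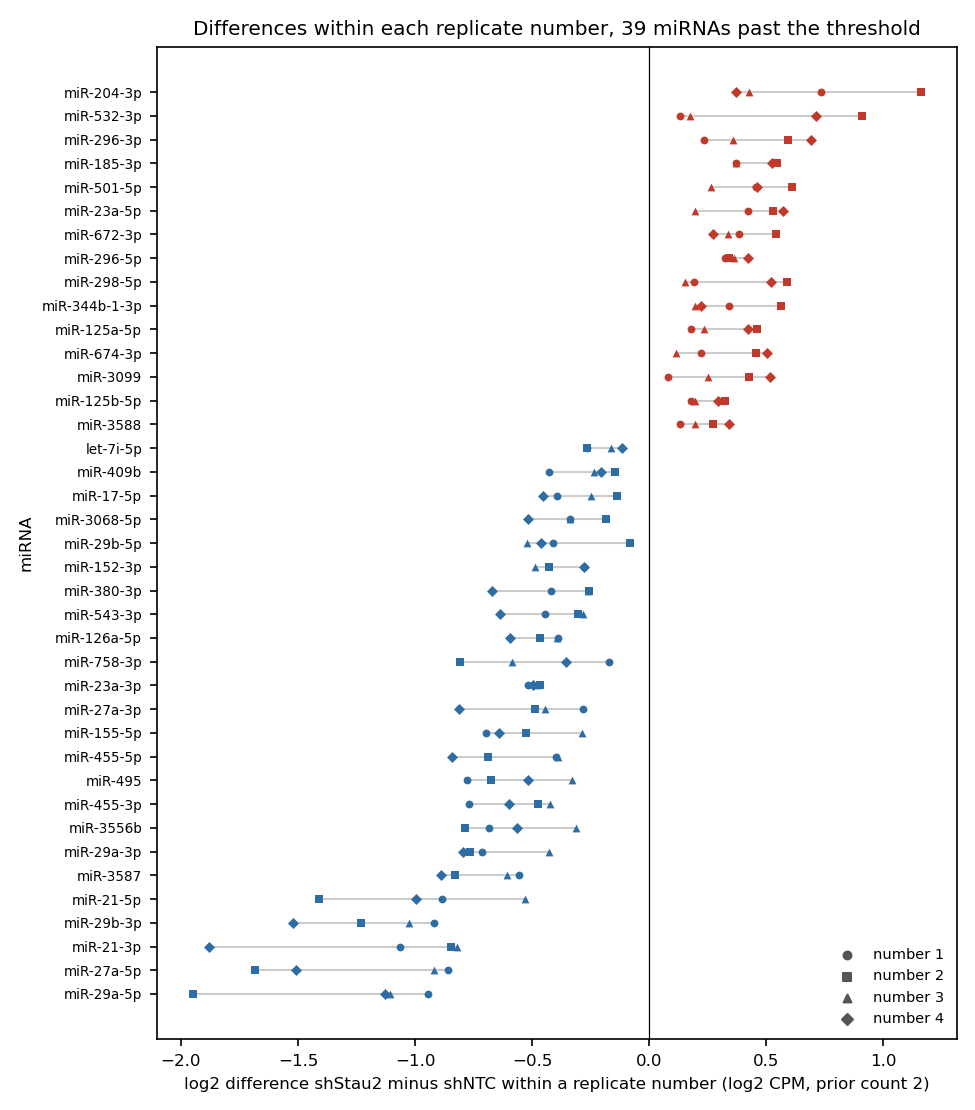
Log2 difference of shStau2 minus shNTC within each replicate number (horizontal axis, log2 CPM with a prior count of 2) for the 39 called miRNAs, ordered by fitted fold change; markers give the number, blue is lower and red higher. All 4 points of each miRNA lie on the same side of 0 and the points of miR-23a-3p, from -0.52 to -0.47, lie closest together.

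Grouped by seed, 36 of 486 families passed (7.41%), 19 higher and 17 lower, and 4 of these hold several names. Besides the seeds of miR-29 and miR-125, the seed UCACAUU of miR-23a-3p and miR-23b-3p fell from 2816 ± 357 to 2338 ± 281 CPM (log2 change -0.27, SE 0.06, adjusted p = 0.0093), and the seed UGGGAGA of the miR-30c passenger strands rose by 0.29 on the log2 scale (adjusted p = 0.0403). Without the block 1 family passed. The summed let-7 seed did not pass (log2 change 0.05, SE 0.05, adjusted p = 0.607), nor did that of miR-27a-3p and miR-27b-3p (-0.16, SE 0.07, adjusted p = 0.189). Of the 266 hairpin clusters, formed by hairpins on a strand at most 10000 bases apart, 26 held a call and 7 held several. A miRNA with several loci, such as miR-29b-3p, was counted in each of its clusters, and both arms of a single hairpin counted as several. Names without a RefSeq position, such as miR-23a-5p, were in no cluster. A list of hairpins with an arm linked to target-directed decay held 20 strands of either arm, of which miR-29b-3p and miR-29b-5p passed in edgeR and miR-29b-3p alone in DESeq2 (median of the 20, -0.02). That count of 2 stands beside the 6.21% called over all miRNAs. Of 8 strands whose hairpins can bypass Drosha or Dicer, 0 passed in edgeR or DESeq2 and 2 had an unadjusted p under 0.05 (median 0.14). Outside the miRNAs, 2 of 90 names annotated as Piwi-interacting RNAs passed (2.22%), both higher.

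Markers of other cell types were present in these neuron cultures, at lower summed levels than the neuron-enriched strands. The 22 neuron-enriched strands tested, among them those of miR-124, miR-128 and miR-9a, made up 334059 to 385179 CPM in shNTC and 347790 to 395413 CPM in shStau2. A large part of that sum was miR-9a, with means of 189436 (5p) and 39224 CPM (3p) in shNTC and 190448 and 38552 CPM in shStau2. None of the 22 passed in edgeR or in DESeq2, where the count was 0 in each, and 7 had an unadjusted p under 0.05 in edgeR. The 14 astrocyte strands, those of miR-21, miR-23a and miR-27a included, summed to between 7428 and 10319 CPM in shNTC, between 5317 and 7053 CPM in shStau2 and between 6112 and 8418 CPM in shPum2. Of these 14, 5 fell and 1 rose, all of them strands of miR-21, miR-23a or miR-27a. Over all 628 miRNAs 3.82% were lower and 2.39% higher. The other 8, those of miR-24, miR-31a, miR-193a and miR-195, did not pass (median of the 14, -0.15). The miR-29 falls stood beside a lower sum of these strands in shStau2, in which miR-21-5p was the most abundant member. The part of cell composition in the miR-29 falls was not tested. The 5 oligodendrocyte strands summed to between 236 and 352 CPM in shNTC and between 268 and 297 CPM in shStau2, with 0 called in edgeR or DESeq2 and 0 at an unadjusted p under 0.05. Of 11 blood or microglia strands 9 could be tested, and they summed to 212 to 411 CPM in shNTC and 158 to 286 CPM in shStau2, with miR-155-5p the single call in edgeR and miR-146a-5p a second in DESeq2. The vessel, muscle or mesenchyme strands, 15 of 19 tested, summed to 1904 to 2187 CPM in shNTC and 1720 to 2022 CPM in shStau2, with miR-126a-5p the single call in edgeR and miR-126a-3p a second in DESeq2. The choroid or ciliated strands, 18 of 19 tested, summed to 2049 to 4033 CPM in shNTC and 2135 to 4480 CPM in shStau2, with miR-204-3p the single call in edgeR and 0 calls in DESeq2. No marker in these lists was at 0 in all 8 libraries.

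The called miRNAs differed in base composition from the rest, and the trend reached beyond them. Median GC content was 50% for 13 of the miRNAs that rose, 40.9% for 23 of those that fell and 47.8% for all 570 tested miRNAs with a sequence. Of the miRNAs with at most 40% GC, which are 18.8% of all, 10 fell and 0 rose. Of those with more than 60% GC, 16.1% of all, 4 rose and 0 fell. The median log2 change in shStau2 went from -0.12 in the lowest of these classes through -0.02 and 0.03 to 0.14 in the highest. In shPum2, measured against the same controls, it went from -0.07 through -0.01 and -0.01 to 0.09. Over the 414 miRNAs with a sequence and at least 10 CPM, GC content and log2 change had a Pearson r of 0.36 and a Spearman rho of 0.39 in shStau2, and of 0.25 and 0.28 in shPum2. Within the replicate numbers the Pearson r in shStau2 was 0.10 for number 1, 0.40 for number 2, 0.19 for number 3 and 0.39 for number 4, so it was weaker in numbers 1 and 3. These points share libraries and depth and are not replicates. After the trend was removed with a smooth curve on GC, a step chosen after seeing the data, 33 of the 36 called miRNAs with a sequence still passed. The 3 that were lost were let-7i-5p, miR-296-5p and miR-3068-5p. The log2 changes of the Gnas-locus strands became smaller with the correction, 0.24 for miR-296-5p (adjusted p = 0.0698), 0.34 for miR-296-3p (adjusted p = 0.0111) and 0.24 for miR-298-5p (adjusted p = 0.0485). Those of miR-29b-3p, miR-21-5p and miR-125a-5p became -1.05, -0.85 and 0.31, and miR-23a-5p, without a sequence, was not in that fit. The share that begins with U was 43.5% among the falls, 38.5% among the rises and 36.5% among all.

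The values in shPum2 show how the same miRNAs stood with another active hairpin, measured against the same shNTC libraries. In that comparison 1 of 628 miRNAs passed (0.159%), miR-23a-3p, which had a log2 change of -0.37 (adjusted p = 0.0179) there and of -0.49 in shStau2. The 24 miRNAs that fell in shStau2 had shPum2 values between -0.58 and 0.27 (median -0.13), and the 15 that rose had values between -0.03 and 0.38 (median 0.05). The lowest was miR-21-5p at -0.58 (adjusted p = 0.388), and miR-29a-3p was at -0.33 (adjusted p = 0.417). The guide miR-29b-3p stood at 1699, 822, 1490.5 and 1282 CPM in shPum2 (log2 change -0.19, adjusted p = 0.793), where number 2 alone was near the shStau2 level. Set directly against shPum2, 25 of 628 miRNAs (3.98%) passed in shStau2. There miR-29b-3p had a log2 change of -0.99 (adjusted p = 0.0292), miR-29a-5p of -1.02 (adjusted p = 0.00334) and miR-495 of -0.85 (adjusted p = 2.25e-05). By contrast, miR-29a-3p at -0.35 (adjusted p = 0.108), miR-21-5p at -0.39 (adjusted p = 0.176) and miR-23a-3p at -0.12 (adjusted p = 0.357) did not pass against shPum2, and miR-125a-5p did at 0.27 (adjusted p = 0.0197).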

How the data were processed

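Per the labels' protocols, RNA was isolated as a batch, had an RNA integrity number of 9.5, and went into small RNA libraries carrying unique molecular identifiers. The deposited values are the authors' whole-number counts per small RNA name, 1 table per library, not normalised. The submitters' processing notes name the build Rnor 6.0. The aligner, the counter, the use of strand, and whether counts are molecules or reads are not given in the sources used here. Totals in the 8 libraries were 3836349 to 5415763 counts, so 3 counts correspond to 0.554 to 0.782 CPM. Such floors cover counting error only. Totals did not differ detectably between shNTC and shStau2 (4663807 ± 705718 and 4553213 ± 393484, SD, n = 4; two-sided exact permutation p = 0.829, smallest possible 0.0286). No 2 libraries agreed within sampling noise.

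Names beginning rno-miR or rno-let were fitted in edgeR 4.0.16 (R 4.3.3) with all 12 libraries: TMM scaling, the filterByExpr filter (57 names removed), group and replicate number as terms, robust quasi-likelihood tests, and Benjamini-Hochberg adjustment over the 628 miRNAs. As deposited, 7 of the 685 names combine several miRNAs. Standard errors were the log2 fold change divided by the root of F. Seed families (summed counts) were fitted likewise, and arm ratios with limma 3.58.1 (prior count 2). Scripts were tested on simulated data.

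The pairing of libraries by number was set with the choice of libraries, before the following check. Deviations from the group means correlated for all 12 same-number pairs of libraries (r 0.36 to 0.57) and between -0.41 and 0.14 for the 36 other pairs. Deviations cancel out within a group, so an effect shared by a number pushes the correlations of other pairs downwards. The range of those 36 pairs is thus not a neutral contrast. Alternatives were no replicate block, other scalings and filters, DESeq2 1.42.0, and leaving out libraries or numbers.

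The named miRNAs were up to 15 higher and 15 lower called with the smallest p and a mean of at least 10 CPM, their other arms, and the leading or called members of the lists, seed families and arm ratios. Outside that rule, and named after their values were seen, were miR-3556a, miR-3556b, miR-3068-5p, the miR-29c strands, miR-409a-3p, miR-24-3p, miR-23b-3p and miR-27b-3p. Members and lists were chosen with earlier results of these data known. Sequences are from RefSeq.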

Additional observations from a re-analysis of the deposited data

Results flagged for a closer look

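Of 58 groups of 4 libraries examined, 2 held a library that stood apart from the other 3, where chance would mark about 1 in 20 groups. For miR-298-5p, shNTC replicate 2 had 957 CPM against 1184 to 1213 CPM in the other 3 controls. For miR-29a-3p, shStau2 replicate 4 had 3388 CPM against 4857 to 5136 CPM in the other 3 knockdown libraries.

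Among names outside the miRNAs, 2 of 90 names annotated as Piwi-interacting RNAs (2.22%) were higher in shStau2 with the replicate block (edgeR), and 0 without it. The name piR_009003 went from 36.3 ± 15.4 to 47.5 ± 20.1 CPM (SD, n = 4), a log2 change of 0.39 (SE 0.10, adjusted p = 0.0266). The name piR_028761 went from 24.1 ± 9.26 to 33.5 ± 7.5 CPM, a log2 change of 0.49 (SE 0.13, adjusted p = 0.0266).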

How the results depend on the processing

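The count of 39 called miRNAs fell to 2 with no replicate block, rose to 68 in a fit of the 8 libraries alone with the block (38 higher, 30 lower, all 39 among them) and was 17 in DESeq2 without the block. The other fits with the block gave 34 to 45. The split of higher and lower calls moved with the scaling, from 15 and 24 to 21 and 17 with upper-quartile factors and to 7 and 32 with library totals. Leaving out single libraries gave 12 to 42 calls, and leaving out a number in all groups gave 5 to 27. No called miRNA changed sign under any setting run, 21 of the 39 passed in all 8 other fits with the block and miR-21-3p in all 7 that tested it, and 8 passed without each library.

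The 36 seed families fell to 1 with no replicate block and to between 5 and 21 without a number. The 5 arm ratios fell to 1 with no replicate block and ranged from 1 to 5 without a number. The 2 other names fell to 0. The causes were not tested. The GC correction and the sums of opposite-strand names were added after seeing the data, and the former gave 44 calls of 570 against 42 uncorrected. For rare strands such as miR-21-3p and miR-29a-5p, counting error limits what can be detected.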
